A study of Mus musculus with 12 samples.

Results

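Glucocorticoid-responsive genes and receptors were examined in mouse retina, as 10 named genes out of the 54532 gene identifiers in the deposited tables. Fkbp5, Tsc22d3, Sgk1, Klf9, Zbtb16, Fam107a, Cdkn1a and Errfi1 were taken as 8 target genes, and Nr3c1 and Nr3c2 as the 2 receptor genes. Members were found by their Ensembl identifiers, and each symbol matched 1 row. The retinas came from wild type C57BL/6 mice with a labelled age of 13 weeks. The methods describe the mice as female. SHAM mice were sham controls. MOG mice were immunized with the myelin peptide MOG35-55, given with complete Freund's adjuvant and pertussis toxin, which induces experimental autoimmune encephalomyelitis (EAE) with optic neuritis. GB20 and GV16 mice were immunized in the same way and were also needled repeatedly under xylazine and ketamine anesthesia, at the acupoint GB20 or at the control site GV16. Each group had 3 libraries, 12 in all. The methods do not say that SHAM or MOG mice were anesthetized, so needling and anesthesia cannot be told apart in a comparison of a needled group with either of them. Nor do they say whether SHAM mice received the adjuvant or the toxin. Peptide, adjuvant and toxin therefore cannot be told apart in comparisons with SHAM. Groups held 2 or 3 mice and the experiment was run 3 times, but whether a library pools mice and whether a replicate number marks 1 of these runs is not given in the sources used here, and neither is the time of day of tissue collection.

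Glucocorticoids are adrenal steroid hormones that rise with stress and follow a daily rhythm. They bind the glucocorticoid receptor, encoded by Nr3c1, which is held in the cytoplasm by Hsp90 and its partners, enters the nucleus once bound and activates genes through glucocorticoid response elements (GRE) or represses inflammatory genes. Nr3c2 encodes the mineralocorticoid receptor, which binds the same hormones. In the retina, Müller cells and other cells are known to express the glucocorticoid receptor, and steroids are used clinically against inflammation of the optic nerve.

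The palindrome of the GRE is known to lie far from the start of many target genes, and the windows shown here cover only the 250 bases before annotated starts. Start sites and bases came from RefSeq on GRCm38.p6, where 8 of the 10 members matched with 19 windows. Nr3c1 and Zbtb16 were not among the 8 matched. Windows were searched for the palindrome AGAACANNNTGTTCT, for its hexamer alone (AGAACA or TGTTCT, either strand), and for the E-box CACGTG, which clock proteins bind. A looser core palindrome, GNACANNNTGTNC, was added after the windows had been seen. Both palindromes and the E-box read the same on the other strand, and every full palindrome also holds the hexamer and the core. The 3 windows below are shown because they are those of members with a palindrome or an E-box, and capitals mark the matches. The window of Sgk1 is chr10:21993640-21993889 on the plus strand of GRCm38, that of Fam107a is chr14:8309796-8310029 on the minus strand and that of Fkbp5 is chr17:28486150-28486399 on the minus strand. In GENCODE vM21 all 3 lie within an intron of a longer transcript of their own gene, upstream of a RefSeq start. From the window of Fam107a, 16 bases next to the start were left out because another transcript begins there.

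Sgk1: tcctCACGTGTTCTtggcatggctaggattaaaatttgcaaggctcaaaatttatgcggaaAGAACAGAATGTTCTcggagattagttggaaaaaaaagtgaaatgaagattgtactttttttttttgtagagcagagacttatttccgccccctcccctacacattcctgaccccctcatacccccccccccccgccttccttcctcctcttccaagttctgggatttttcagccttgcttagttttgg

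Fam107a: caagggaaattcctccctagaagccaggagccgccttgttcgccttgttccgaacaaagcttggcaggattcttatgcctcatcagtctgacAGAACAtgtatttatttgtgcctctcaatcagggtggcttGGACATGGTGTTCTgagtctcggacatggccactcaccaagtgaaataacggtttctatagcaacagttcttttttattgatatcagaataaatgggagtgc

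Fkbp5: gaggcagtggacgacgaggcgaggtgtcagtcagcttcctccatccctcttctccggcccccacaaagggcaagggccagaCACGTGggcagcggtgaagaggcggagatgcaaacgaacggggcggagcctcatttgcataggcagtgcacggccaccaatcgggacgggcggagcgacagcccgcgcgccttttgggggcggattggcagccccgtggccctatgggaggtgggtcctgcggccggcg

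The full palindrome occurred in 1 of 19 member windows, the fifth of the 6 annotated starts of Sgk1, 189 bases before the start, as AGAACAGAATGTTCT. Of all 32851 promoter windows of this length, 3 (0.00913%) held it. In the same window a hexamer overlapped an E-box 246 bases before the start. The core palindrome occurred 118 bases before a start of Fam107a, as GGACATGGTGTTC, followed by the base that completes the hexamer TGTTCT, and 0.387% of all windows held it. The E-box of the Fkbp5 window lay 169 bases before the start, and 6.02% of all windows held an E-box. The hexamer alone was held by 16.1% of all windows, and beyond Sgk1 and Fam107a also by a window of Tsc22d3. In the searched windows of Klf9, Cdkn1a, Errfi1 and Nr3c2 none of these letter strings was found. These matches describe letters only and were not tested for receptor binding.

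Depth was similar across libraries, from 15860278 to 19194280 counts on genes. In the 12 pairs of libraries from 1 group, chi-square per gene lay between 3.03 and 16.5, where counting noise alone gives about 1, and none was a copy of another. As labelled retina, all libraries were rich in the 5 rod markers, with a summed level between 49331 and 55492 CPM (counts per scaled library size, TMM method). The 5 T cell markers summed to at most 1.42 CPM and none of them passed the expression filter. The summed level of 6 retinal ganglion cell (RGC) markers lay between 599.8 and 674.1 CPM in SHAM and between 347.2 and 414.9 CPM in MOG, and all 6 markers were lower in MOG than in SHAM. The 6 microglia markers summed to between 15.5 and 20.8 CPM in SHAM and between 25.3 and 28.9 CPM in MOG. Lens markers were uneven, with 9.17 CPM in SHAM replicate 2 and 6.14 CPM in GB20 replicate 2, against at most 1.35 CPM in each of the other 10 libraries. The 5 pigment epithelium markers, of which 4 passed the filter, summed to between 8.66 and 13.5 CPM in SHAM, 17.7 and 22.6 CPM in MOG and 19.7 and 22.3 CPM in GB20. In GV16 they ranged from 10.4 CPM in replicate 1 to 29.3 CPM in replicate 2, which were also the lowest and highest GV16 libraries for Fkbp5, Fam107a and Cdkn1a. Endothelial and mural markers, 6 in all, summed to between 243.7 and 258.0 CPM in MOG, above the 190.8 to 236.3 CPM of the 6 needled libraries, and to between 220.8 and 257.5 CPM in SHAM. The part of these markers in the results below was not tested. In whole retina, fewer cells of a type and less RNA per cell cannot be told apart.

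All 10 members passed edgeR's filter on low counts, as did 18299 genes in total, and all were expressed in each library. FPKM, which corrects the level for gene length, was used to rank the members. Sgk1, a kinase that regulates ion channels and transporters, had the top mean level with 86.0 ± 4.54 FPKM (SD, n = 12 libraries). Klf9, a transcription factor of the Krüppel family, followed with 45.3 ± 2.88 FPKM. Nr3c1 had 13.1 ± 0.892 FPKM and was above Nr3c2, with 5.01 ± 0.284 FPKM, in every library. Errfi1, an inhibitor of the EGF receptor, had 8.47 ± 0.608 FPKM, and Tsc22d3, which encodes the anti-inflammatory protein GILZ, had 7.62 ± 0.946 FPKM. Fam107a, an actin-binding protein induced by stress, had 4.39 ± 1.52 FPKM and Fkbp5, a co-chaperone that lowers the hormone affinity of the receptor, had 3.70 ± 0.952 FPKM. Cdkn1a, the cell cycle inhibitor p21, had 1.63 ± 0.460 FPKM and Zbtb16, a zinc finger transcription factor, had 1.08 ± 0.466 FPKM. Neighbours in this order were not always apart. Errfi1 exceeded Tsc22d3 in 10 of 12 libraries, Nr3c2 exceeded Fam107a in 8, Fam107a exceeded Fkbp5 in 9 and Cdkn1a exceeded Zbtb16 in 10. The spread across libraries was small for Sgk1, whose top library was 1.17 times its lowest, and wide for Zbtb16, Fam107a, Cdkn1a and Fkbp5, with ratios of 3.83, 2.60, 2.39 and 1.97.

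**Figure D1:**
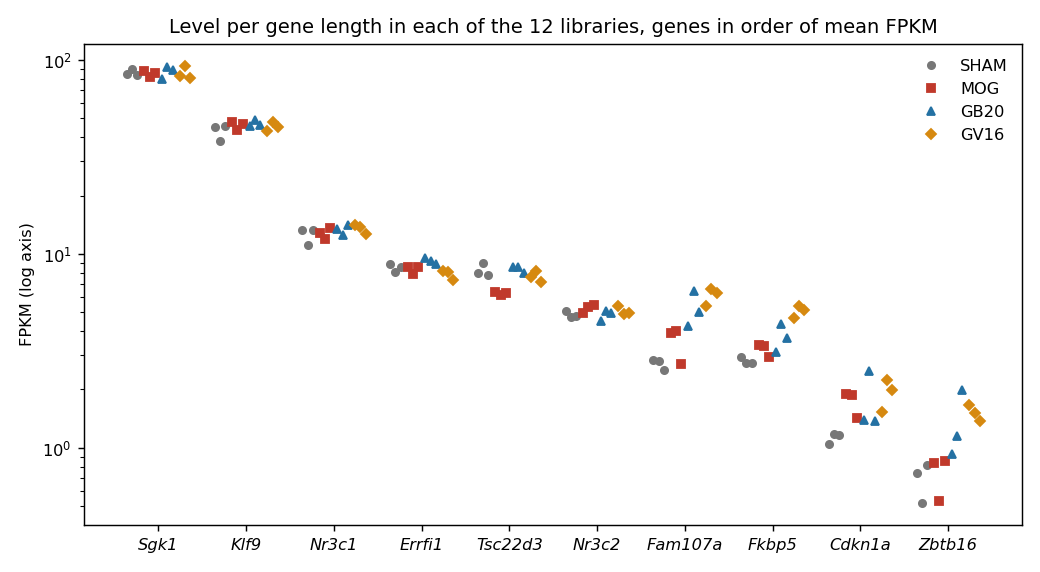
FPKM of the 10 genes (log axis) in each of the 12 libraries, with genes in order of their mean FPKM and 1 symbol per group. Sgk1 and Klf9 sit above all others in every library, and Zbtb16, with a mean of 1.08 FPKM, is spread over a ratio of 3.83.

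MOG was set against SHAM to ask which members differed in retinas of immunized mice. Of the 10 members, 1 was lower in MOG at an adjusted p under 0.05 (edgeR quasi-likelihood test, Benjamini-Hochberg adjustment over 18299 genes) and none was higher. Over all genes tested, 0.771% were lower by this threshold and 1.34% changed in either direction. The member that fell was Tsc22d3. Its CPM was 34.8, 39.1 and 34.1 in SHAM and 27.6, 27.0 and 27.4 in MOG. Every MOG library was below every SHAM library, and the MOG libraries lay close together. In edgeR the change was -0.40 on the log2 scale (SE 0.084), at an adjusted p of 0.0131. Without SHAM replicate 2, the library with the most lens marker RNA, it was -0.33 and the adjusted p was 0.0647. The call was also lost without MOG replicate 2 (adjusted p = 0.0925) or MOG replicate 3 (adjusted p = 0.0903). With limma on log2(FPKM + 1) in place of edgeR, the adjusted p was 0.0561.

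Cdkn1a and Fkbp5 were the members with each MOG library above each SHAM library, a pattern shown by 7.87% of all genes, while 8.34% of all genes showed the opposite pattern of Tsc22d3. Cdkn1a, which also responds to p53 and cell stress, had 3.75, 4.23 and 4.16 CPM in SHAM and 6.72, 6.76 and 5.10 CPM in MOG. This rests on 62 to 75 counts per library in SHAM and 85 to 120 in MOG. The log2 difference of Cdkn1a was 0.61 (SE 0.22) with an adjusted p of 0.219 in edgeR, so it did not pass the test. For Fkbp5 the CPM was 28.0, 26.1 and 26.1 in SHAM and 32.01, 31.95 and 28.04 in MOG. SHAM replicate 1 and MOG replicate 3 of Fkbp5 were nearly equal, and the log2 difference of 0.20 (95% interval -0.02 to 0.41) did not pass the test. Fam107a overlapped between the groups, since MOG replicate 3, at 10.5 CPM, lay within the SHAM range of 9.88 to 11.1 CPM while the other MOG libraries had 15.2 and 15.7 CPM. MOG replicate 3 was the lowest MOG library for Fkbp5, Fam107a and Cdkn1a alike. Over the 10 members the median log2 fold change was 0.10, beside -0.00 over all genes tested, and it was 0.03 without SHAM replicate 2 or MOG replicate 3 and 0.04 without MOG replicate 1.

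**Figure D2:**
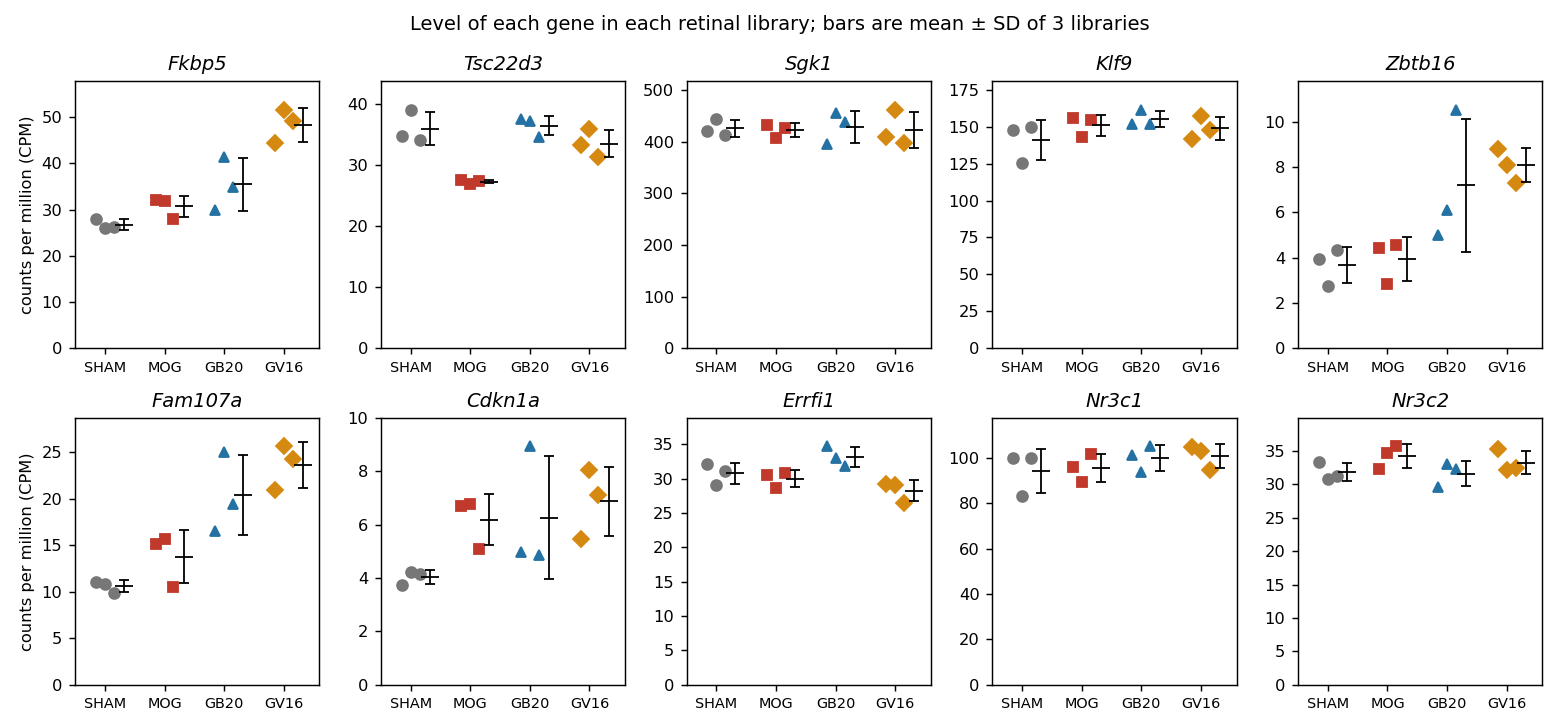
Level of each of the 10 genes (CPM, axes from 0) in the 3 libraries of SHAM, MOG, GB20 and GV16, with the mean ± SD of each group beside its points. Tsc22d3 is lowest in the 3 MOG libraries, at 27.0 to 27.6 CPM, and Fkbp5 and Fam107a are higher in the 3 GV16 libraries than in all SHAM and MOG libraries.

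Needling at GB20 was compared with MOG to find members that differed after treatment at this acupoint. 1 of 10 members was higher in GB20 and none was lower, against 0.0984% of all genes higher and 0.24% in either direction. Tsc22d3 rose, with 37.6, 37.2 and 34.7 CPM in GB20 against 27.0 to 27.6 CPM in MOG. The GB20 libraries were all above the MOG libraries and within the SHAM range. In edgeR the change was 0.42 on the log2 scale (SE 0.084), at an adjusted p of 0.029, and between GB20 and SHAM it was 0.02, with a 95% interval from -0.15 to 0.19. MOG libraries enter both of these comparisons with MOG, so the fall against SHAM and the rise in GB20 are not independent. The call in GB20 vs. MOG was lost when any 1 of the 6 libraries was left out, with a log2 fold change between 0.40 and 0.45 and an adjusted p of up to 0.177.

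In GB20 vs. MOG, 4 of 10 members had all GB20 libraries above all MOG libraries, namely Tsc22d3, Zbtb16, Fam107a and Errfi1, compared with 7.96% of all genes. Zbtb16 had 4.42, 2.83 and 4.56 CPM in MOG and 4.997, 6.08 and 10.5 CPM in GB20. GB20 replicate 3 was far above the other GB20 libraries, and the log2 difference of 0.86 (SE 0.25) had an adjusted p of 0.307 in edgeR. Fam107a had 16.6, 25.0 and 19.5 CPM in GB20, with a log2 difference of 0.56 (SE 0.15) and an adjusted p of 0.236 in edgeR. For Fkbp5, GB20 replicate 1, at 29.9 CPM, fell within the MOG range, while replicates 2 and 3 had 41.4 and 35.0 CPM. GB20 replicate 1 was the lowest GB20 library for Fkbp5, Zbtb16 and Fam107a. GB20 replicate 2, the other library rich in lens markers, was the highest for Fkbp5, Fam107a and Cdkn1a.

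GV16 was the control site of needling. Compared with MOG, 2 of 10 members were higher in GV16 and none was lower, against 0.0656% of all genes higher and 0.164% in either direction. Fkbp5 rose to 44.3, 51.6 and 49.1 CPM in GV16. Each GV16 library was above every library of the other 3 groups, of which the highest had 41.4 CPM. Taken singly, all GV16 libraries were above MOG in 6.17% of all genes, above SHAM in 6.86% and above GB20 in 4.32%. The share of all genes with the joint pattern was not counted. The log2 fold change of GV16 vs. MOG was 0.66 (SE 0.10, adjusted p = 0.00395 in edgeR), which put Fkbp5 at rank 6 of 18299 genes by p. The call held in each of 12 fits without 1 library, with a log2 fold change between 0.59 and 0.72, but limma on log2(FPKM + 1) gave 0.53 with an adjusted p of 0.211. Fam107a also rose, to 20.9, 25.7 and 24.3 CPM in GV16, by 0.78 on the log2 scale (SE 0.15), at an adjusted p of 0.0415 in edgeR. All GV16 libraries of Fam107a exceeded the MOG libraries, but the call was lost in 9 of 12 fits without 1 library, where the library left out was SHAM replicate 1 or 2, GB20 replicate 3 or any MOG or GV16 library, with an adjusted p of up to 0.304.

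In GV16 vs. MOG, 4 of 10 members had all GV16 libraries above all MOG libraries, namely Fkbp5, Tsc22d3, Zbtb16 and Fam107a, compared with 6.17% of all genes. Zbtb16 had 8.82, 8.10 and 7.31 CPM in GV16, and the log2 difference of 1.03 (SE 0.25) had an adjusted p of 0.187 in edgeR and of 0.0405 in DESeq2 on the same 12 libraries. Counts of Zbtb16 were low, with 46 to 79 per library in MOG and 118 to 142 in GV16. Tsc22d3 had 33.3, 35.9 and 31.4 CPM in GV16, and its log2 difference of 0.29 (SE 0.085, adjusted p = 0.379 in edgeR) did not pass the test.

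**Figure D3:**
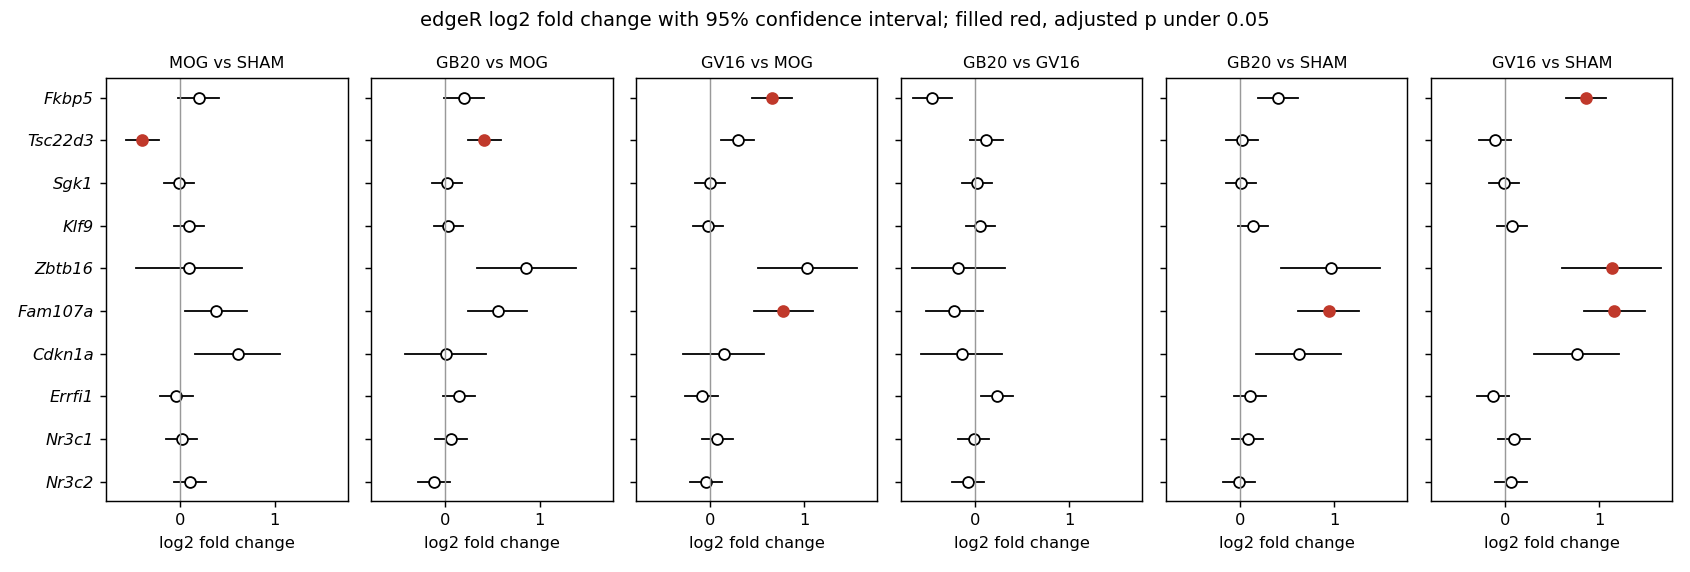
edgeR log2 fold change (point) and 95% confidence interval (line) of the 10 genes in 6 comparisons, where filled red points have an adjusted p under 0.05. Tsc22d3 is filled in MOG vs. SHAM and GB20 vs. MOG, Fkbp5 and Fam107a are filled in GV16 vs. MOG, and no gene is filled in GB20 vs. GV16.

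Whether the response of a member differed between the needling sites was tested by GB20 vs. GV16, which is also the test of the difference between the GB20 and GV16 effects relative to MOG. None of the 10 members passed the adjusted threshold in edgeR, and 2 had an unadjusted p under 0.05. In DESeq2, with 12 or with 6 libraries, the count was also 0. Of all genes, 0.00546% passed the adjusted threshold and 2.93% the unadjusted one. Fkbp5 was lower in GB20 than in GV16 by a log2 difference of -0.45 (95% interval -0.66 to -0.24), with an adjusted p of 0.659 in edgeR and rank 4 of 18299 genes by p. Its libraries did not overlap between the sites, a pattern of 4.32% of all genes for lower values in GB20. Errfi1 was the other, with 34.7, 33.1 and 31.8 CPM in GB20 and 29.2, 29.1 and 26.5 CPM in GV16, where 4.03% of all genes had all GB20 libraries above. Its log2 difference of 0.23 (95% interval 0.06 to 0.40) had an adjusted p of 0.9999 in edgeR. Tsc22d3 differed by 0.12 (95% interval -0.05 to 0.30), so the rise called in GB20 and not in GV16 was not shown to be particular to a site. For Fam107a the difference was -0.22 (95% interval -0.52 to 0.09) and for Zbtb16 -0.17 (95% interval -0.66 to 0.31).

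Relative to SHAM, the needled and immunized groups share the same 3 control libraries. In GB20 vs. SHAM, 1 of 10 members was higher, Fam107a, against 0.164% of all genes. In edgeR the gene was up by 0.94 on the log2 scale (SE 0.15) at an adjusted p of 0.00668, and the adjusted p was 0.0506 without SHAM replicate 1. In this comparison 5 of 10 members had all GB20 libraries above all SHAM libraries (Fkbp5, Klf9, Zbtb16, Fam107a and Cdkn1a), compared with 5.66% of all genes. In GV16 vs. SHAM, 3 of 10 members were higher and none was lower, against 0.224% of all genes. Fkbp5 was higher by 0.85 on the log2 scale (SE 0.10), at an adjusted p of 7.62e-05 in edgeR, a ratio of 1.81. Fam107a was higher by 1.16 (SE 0.15, adjusted p = 0.000566 in edgeR), a ratio of 2.23. Zbtb16 was higher by 1.13 (SE 0.25, adjusted p = 0.0445 in edgeR), a ratio of 2.19, and this call was lost in 7 of 12 fits without 1 library, with SHAM replicates 1 and 2, MOG replicates 1 and 3 and each GV16 library as the library left out and an adjusted p of up to 0.183. Cdkn1a joined them in the count of 4 of 10 members with all GV16 libraries above all SHAM libraries, compared with 6.86% of all genes. Its log2 difference of 0.76 (SE 0.22) had an adjusted p of 0.127 in edgeR, and between GV16 and MOG it was 0.15 (95% interval -0.28 to 0.58). RGC markers were also lower than in SHAM in both needled groups, with sums of 420.5 to 432.8 CPM in GB20 and 320.8 to 467.7 CPM in GV16.

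As a comparison added after the others had been seen, the mean of GB20 and GV16 was set against MOG in the same fit. 3 of 10 members were higher, against 0.109% of all genes. Fam107a was higher by 0.67 (SE 0.13, adjusted p = 0.0276), Fkbp5 by 0.43 (SE 0.089, adjusted p = 0.0281) and Tsc22d3 by 0.36 (SE 0.074, adjusted p = 0.0289), all in edgeR. The value of Fkbp5 joins 0.66 in GV16 with 0.21 in GB20 (adjusted p = 0.628 in edgeR), and its needled libraries overlapped those of MOG. Zbtb16 had 2.83 to 4.56 CPM in MOG and 4.997 to 10.5 CPM in the 6 needled libraries. Its log2 difference of 0.94 (SE 0.22) had an adjusted p of 0.103 in edgeR and of 0.0105 in DESeq2. The 3 calls were each lost in 6 or 7 of 12 fits without 1 library. The libraries left out in these fits were every MOG library and 3 or 4 of the needled libraries. The adjusted p in edgeR was up to 0.364 for Fkbp5, 0.294 for Fam107a and 0.23 for Tsc22d3.

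The receptor genes did not pass the test in any comparison. Nr3c1 had 99.8, 83.0 and 100.04 CPM in SHAM, and 96.0, 89.3 and 101.5 CPM in MOG. The GB20 libraries had 101.1, 93.9 and 105.1 CPM, and those of GV16 had 104.9, 102.9 and 94.9 CPM. These 4 groups overlapped throughout. Nr3c1 differed between MOG and SHAM by 0.02 (95% interval -0.15 to 0.19), between GB20 and MOG by 0.07 (95% interval -0.10 to 0.23) and between GV16 and MOG by 0.08 (95% interval -0.09 to 0.24) on the log2 scale. Nr3c2 had 33.3, 30.8 and 31.2 CPM in SHAM, and 32.2, 34.7 and 35.7 CPM in MOG. GB20 libraries held 29.5, 33.0 and 32.3 CPM, and GV16 libraries 35.2, 32.1 and 32.4 CPM. Its log2 difference was 0.11 (95% interval -0.06 to 0.28) in MOG vs. SHAM and -0.11 (95% interval -0.29 to 0.06) in GB20 vs. MOG. RNA levels do not show where the receptor protein was or how active it was.

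Sgk1, Klf9 and Errfi1 passed the test in no comparison either. Sgk1 lay between 394.7 and 462.1 CPM in all libraries, with log2 differences from -0.01 to 0.02 in the 6 comparisons and a 95% interval of -0.17 to 0.15 in MOG vs. SHAM. The top and bottom libraries of Sgk1 were both from needled groups. Klf9 had 148.0, 125.5 and 149.8 CPM in SHAM, where the low library was SHAM replicate 2, which was also the lowest of all for Nr3c1. In the other groups Klf9 lay between 141.6 and 161.6 CPM, and its 95% interval was -0.06 to 0.25 in MOG vs. SHAM and -0.18 to 0.13 in GV16 vs. MOG. Errfi1 ranged from 28.6 to 32.1 CPM over SHAM and MOG, and its log2 difference between them was -0.04 (95% interval -0.21 to 0.14).

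Across the 12 libraries Fkbp5 and Fam107a varied together, with Pearson's r of 0.93 on log2 CPM, and r was 0.92 after the group means had been taken away. For Fkbp5 and Zbtb16 r was 0.73 over all libraries and 0.02 within groups, and for Fkbp5 and Cdkn1a it was 0.75 and 0.84. Fkbp5 and Tsc22d3 had r of 0.06 over all libraries and 0.00 within groups. The order of libraries therefore differed between these targets, with MOG at the bottom for Tsc22d3 and SHAM at the bottom for Fkbp5. These are descriptions over libraries that share groups and controls. Among the other genes tested, the 6 most like Fkbp5 over the 12 libraries were Folh1 (r = 0.90), Arl4a (0.89), Selenbp1 (0.88), Gm44553 (0.88), 2700054A10Rik (0.88) and Ahcyl1 (0.88). Fam107a, a member, was closer to Fkbp5 than each of them.

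**Figure D4:**
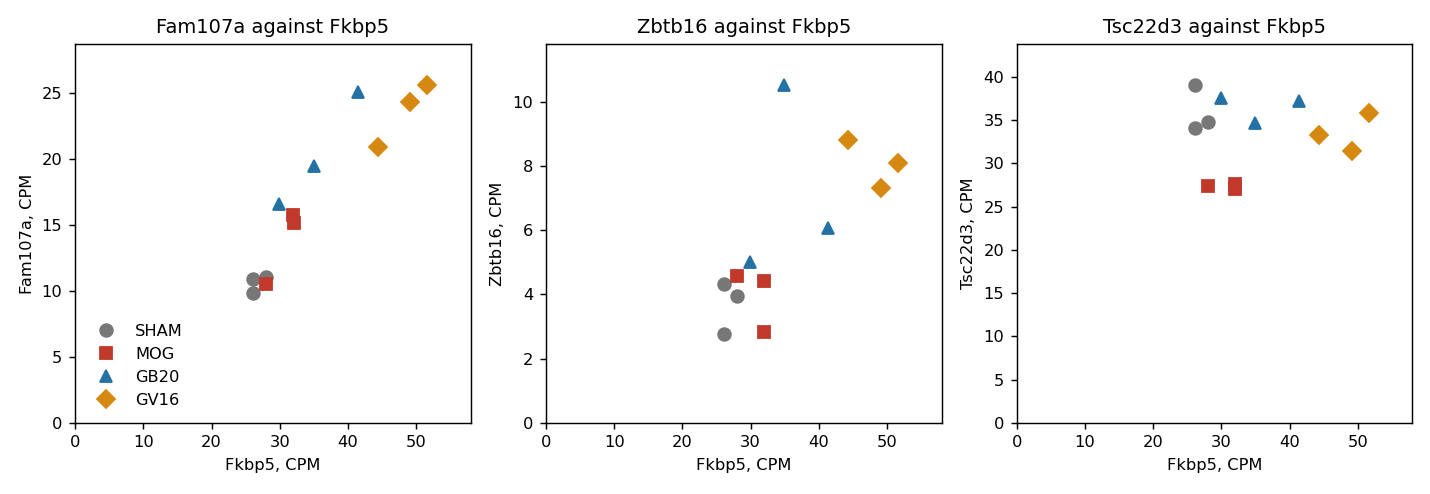
CPM of Fam107a, Zbtb16 and Tsc22d3 (vertical axes) against CPM of Fkbp5 (horizontal axis), 1 point per library and 1 symbol per group. Fam107a rises with Fkbp5 over all 12 libraries (r = 0.93 on log2 CPM), whereas for Tsc22d3 the 3 MOG libraries lie below the other 9.

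Other genes of the pathway were taken from 6 lists with 81 genes, of which 71 were tested. 5 of these genes changed in MOG vs. SHAM, 7 in GB20 vs. MOG, 4 in GV16 vs. MOG and 0 in GB20 vs. GV16, where 7 had an unadjusted p under 0.05 in edgeR and DESeq2 called 1 with 12 libraries and 0 with 6. The shares of all genes that changed were 1.34%, 0.24%, 0.164% and 0.00546%. In the list of other glucocorticoid targets, 1 of 23 tested genes changed, Per1 in GB20 vs. MOG. This gene was counted here and not in the list of clock genes below. Per1, a clock gene with a known GRE, had 83.1, 97.3 and 112.1 CPM in MOG and 131.9, 159.6 and 130.7 CPM in GB20. The rise was 0.53 on the log2 scale (SE 0.10), at an adjusted p of 0.0337 in edgeR, and in GV16 vs. MOG the value was 0.24 (adjusted p = 0.907 in edgeR). The call for Per1 was lost in 6 of 12 fits without 1 library (SHAM replicate 3, MOG replicates 1 and 2 and each GB20 library), with an adjusted p of up to 0.185, and with the gene length trend removed (adjusted p = 0.0719). The median log2 fold change of the 23 genes was 0.10 in MOG vs. SHAM, 0.19 in GB20 vs. MOG and 0.14 in GV16 vs. MOG, beside 0.00 over all genes in each needled comparison. The first of these was 0.05 without SHAM replicate 1, and the last was 0.08 without MOG replicate 3 and 0.01 without GV16 replicate 2. Mt1, a metallothionein, had 42.5 to 47.5 CPM in MOG, 48.4 to 71.0 in GB20 and 53.1 to 65.4 in GV16, with log2 differences of 0.38 and 0.38 that did not pass the test (adjusted p = 0.509 and 0.83 in edgeR). Mt2, whose exons overlap an antisense gene over 73.5% of their bases, stayed under 1 CPM in every library, with 2 to 15 counts. Its range was 0.12 to 0.24 CPM in SHAM, 0.36 to 0.74 in MOG, 0.30 to 0.73 in GB20 and 0.62 to 0.96 in GV16. Mt2 was not called in any comparison. Dusp1, a phosphatase that limits MAP kinase signals, ranged from 19.1 to 39.8 CPM within SHAM alone and did not pass the test.

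Of 10 receptor chaperones, 11 receptor coregulators and 6 tested genes of steroid enzymes and transport, 0 changed in these 4 comparisons in edgeR. The chaperones had a median log2 fold change of -0.17 in MOG vs. SHAM, 0.10 in GB20 vs. MOG and 0.05 in GV16 vs. MOG. Single libraries moved these medians: the first was -0.09 without SHAM replicate 2, the second lay between 0.05 (without MOG replicate 2 or GB20 replicate 2) and 0.16 (without MOG replicate 1), and the third between 0.01 (without MOG replicate 2) and 0.11 (without MOG replicate 1). Hsp90ab1, the constitutive Hsp90, had 424.5 to 473.1 CPM in SHAM and 346.1 to 426.9 CPM in MOG, and its log2 difference of -0.27 (SE 0.085) had an adjusted p of 0.148 in edgeR. The coregulators had a median of 0.16 in MOG vs. SHAM, -0.10 in GB20 vs. MOG and -0.01 in GV16 vs. MOG, where 5 genes had a value above 0 and 6 below. Without SHAM replicate 2 the first was 0.07, and the second lay between -0.19 (without GB20 replicate 3) and -0.06 (without GB20 replicate 1). The 2 lists also differ in gene length, with 1349 to 4638 exon bases for the chaperones and 6475 to 15642 for the coregulators. Their medians were not computed with the gene length trend removed, so the part of length in these values was not tested. Hsd11b1, the enzyme that regenerates active glucocorticoid from its inactive form, was at 0.24 to 1.03 CPM, near the limit of detection, and did not pass the test.

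Among 6 tested mineralocorticoid effectors, genes linked to the transport of ions and water, Aqp4 and Atp1b1 changed. Aqp4, the water channel of Müller cells and astrocytes, rose in MOG, with 112.9, 97.4 and 104.0 CPM in SHAM and 152.9, 145.3 and 135.5 CPM in MOG. The rise was 0.46 on the log2 scale (SE 0.071), at an adjusted p of 0.000812 in edgeR, and held in 12 of 12 fits without 1 library. In both needled groups Aqp4 was lower than in MOG, by -0.35 in GB20 (adjusted p = 0.0293) and -0.34 in GV16 (adjusted p = 0.0472), both in edgeR, and the call in GB20 was lost in 6 of 12 such fits (without any MOG or GB20 library) and the call in GV16 in 10 (without SHAM replicate 1 or any library of the other 3 groups). The 6 Müller cell markers, Aqp4 included, summed to 3156 to 3380 CPM in SHAM and 2831 to 3149 CPM in MOG. Atp1b1, a subunit of the sodium pump whose exons overlap those of Nme7 over 18.7% of their bases, fell in MOG by 0.34 on the log2 scale (adjusted p = 0.0315 in edgeR), a call that did not hold in the fits leaving out SHAM replicate 1, MOG replicate 2 or MOG replicate 3.

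Of 15 clock genes, 3 fell in MOG vs. SHAM, 5 rose in GB20 vs. MOG and 3 rose in GV16 vs. MOG. Over all genes tested, the shares in these directions were 0.771%, 0.0984% and 0.0656%. The study had reported circadian rhythm genes as changed by GB20 needling in these same libraries. Since the list was chosen with earlier results of these data known, its counts are not independent of that report. Ciart, a repressor within the clock, had 17.9, 17.99 and 15.9 CPM in SHAM, and 8.62, 10.5 and 9.73 CPM in MOG. After needling it had 21.3, 24.3 and 18.7 CPM in GB20, and 14.96, 19.9 and 15.1 CPM in GV16. For Ciart, as for Tsc22d3, the MOG libraries lay below those of each other group. Taken singly, MOG was below SHAM in 8.34% of all genes, GB20 above MOG in 7.96% and GV16 above MOG in 6.17%. These comparisons share the MOG libraries, and the share of all genes with the joint pattern was not counted. The log2 fold change of Ciart was -0.85 in MOG vs. SHAM (adjusted p = 0.00105), 1.16 in GB20 vs. MOG (adjusted p = 3.4e-05) and 0.79 in GV16 vs. MOG (adjusted p = 0.00731), all in edgeR. Dbp and Bhlhe40 fell in MOG vs. SHAM, by 0.50 and 0.35 on the log2 scale (adjusted p = 0.000434 and 0.0313 in edgeR), and rose in GB20 vs. MOG, by 0.43 and 0.39 (adjusted p = 0.00554 and 0.0414 in edgeR). Per2 and Cry1 rose in both needled groups, by 0.70 and 0.40 in GB20 (adjusted p = 0.00407 and 0.0153 in edgeR) and by 0.62 and 0.37 in GV16 (adjusted p = 0.017 and 0.0379 in edgeR). Exons of Dbp overlap those of Sphk2 over 18.01% of their bases. Several calls did not hold in all 12 fits without 1 library, in some cases also where the library came from a group outside the comparison. Fold changes kept their direction in these fits. For Cry1 in GV16 vs. MOG they lay between 0.35 and 0.40 on the log2 scale. Bhlhe40 was lost in 5 of 12 in MOG vs. SHAM (SHAM replicates 1 and 2 and each MOG library) and in 7 in GB20 vs. MOG (SHAM replicate 1, each MOG library, GB20 replicates 2 and 3 and GV16 replicate 3). Cry1 was lost in 5 in GB20 vs. MOG (each MOG library and GB20 replicates 2 and 3) and in 9 in GV16 vs. MOG (all but those without SHAM replicates 2 or 3 or GB20 replicate 1). Per2 was lost in GV16 vs. MOG without MOG replicates 1 or 3 or GV16 replicates 1 or 3, Dbp in GB20 vs. MOG without MOG replicate 2 or GB20 replicate 2, and Ciart in GV16 vs. MOG without MOG replicate 1 or GV16 replicate 2. Expression of these genes follows the time of day, and collection time was not tested.

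**Figure D5:**
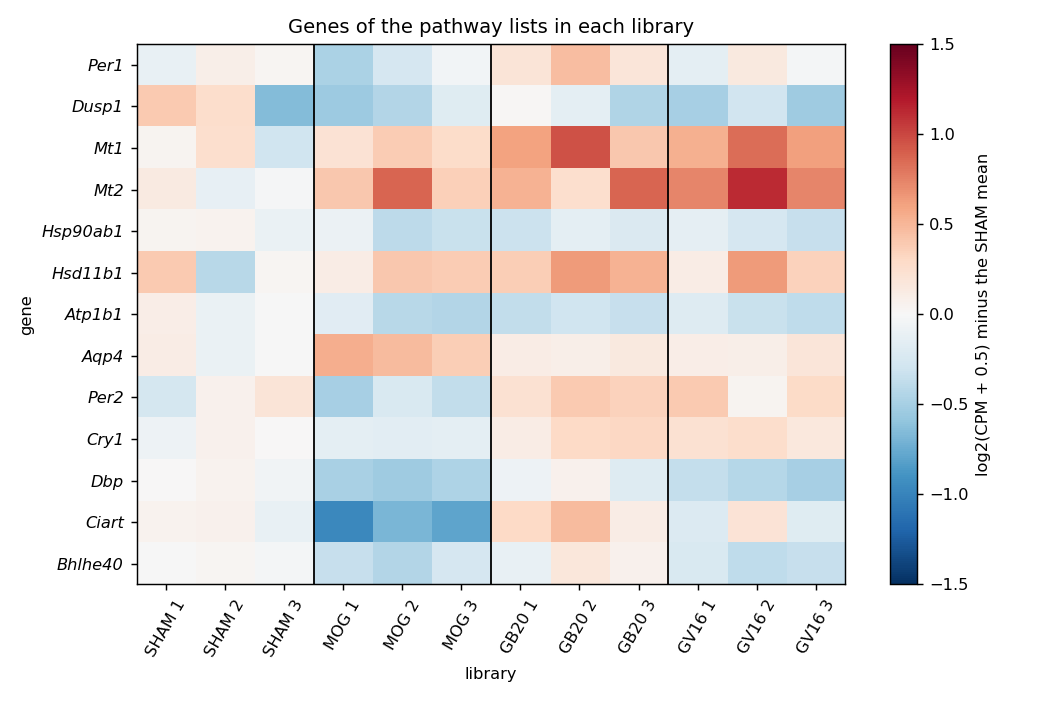
Colour shows log2(CPM + 0.5) minus the mean of the 3 SHAM libraries for 13 genes of the pathway lists (rows) in the 12 libraries (columns), red for higher and blue for lower than SHAM. Ciart is blue in the 3 MOG libraries, and Aqp4 is red in the same libraries, at 0.372 to 0.545.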

How the data were processed

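Retinal RNA was sequenced as 12 libraries, 3 for each of the 4 groups, and group and replicate number were taken from the sample titles. Per the labels and the study's methods, the authors selected polyadenylated RNA, aligned reads to mm10 with HISAT2 2.0.5, counted them per gene with FeatureCounts and deposited whole-number counts without normalization. FPKM values deposited beside them were computed by the authors from count and gene length; for the 14424 genes with at least 20 counts in every library their ratio to the counts was constant across libraries within 1%, after 1 factor per library. The annotation, the strand option and the handling of multi-mapping reads were not stated by the sources read here, and the kit does not mark strand, so reads of Cdkn1a and Nr3c2 cannot be told apart from those of an antisense gene that overlaps 7.68% and 3.82% of their exon bases.

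Count tests used edgeR 4.0.16 under R 4.3.3 (expression filter with 4 groups, TMM scaling, robust quasi-likelihood fit of all 12 libraries with 1 mean per group, 8 residual degrees of freedom). P-values were adjusted over 18299 genes by the Benjamini-Hochberg method and a gene was called at an adjusted p under 0.05. They measure the spread between libraries, which the methods call biological replicates. CPM values use TMM library sizes, and counting error limits the low genes most. Alternatives were median-of-ratios size factors, no filter, DESeq2 1.42.0, fits on 6 libraries, limma 3.58.1 (voom, and log2 FPKM with a pseudocount of 1 or 0.1), a replicate block, removal of a gene length trend, and each library left out. Scripts were tested on simulated data. Names and coordinates were those of GENCODE vM21 (GRCm38), where 54495 of 54532 identifiers matched, and promoter windows from RefSeq on GRCm38.p6. Named genes were the 10 members, every called gene of the pathway lists in MOG vs. SHAM, in either needled group vs. MOG or between the needled groups, 6 fixed pathway genes (Per1, Dusp1, Mt1, Mt2, Hsd11b1 and Hsp90ab1), and the 6 genes most correlated with Fkbp5. Members and lists were chosen with earlier results of these data known. Figures used Python and matplotlib.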

Additional observations from a re-analysis of the deposited data

How the results depend on the processing

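No called change of a member turned its direction under any alternative. Of 1590 member values under alternatives, 1496 stayed on their side of the threshold, 67 lost and 27 gained a call, and among values that were not called 63 changed sign, all with a main log2 size of at most 0.173. Without the filter on low counts, the number of members called was 2 in MOG vs. SHAM, 3 in GB20 vs. MOG, 1 in GB20 vs. GV16 (Fkbp5, adjusted p = 0.0109) and 3 in GB20 vs. SHAM, and that of pathway list genes was 10, 11 and 1 in the first 3 of these. Members gained there with GV16 were Zbtb16 vs. MOG (adjusted p = 1.2e-05 in edgeR) and Cdkn1a vs. SHAM (0.0047). Calls over all genes rose likewise, from 245 to 539 in MOG vs. SHAM, 44 to 140 in GB20 vs. MOG, 30 to 73 in GV16 vs. MOG, 1 to 8 in GB20 vs. GV16, 63 to 282 in GB20 vs. SHAM and 120 to 395 in GV16 vs. SHAM, with 34538 genes tested. With limma on log2(FPKM + 1) and on log2(FPKM + 0.1) alike, 0 members were called in the comparisons of MOG with SHAM or with needled groups (each or both) and in GB20 vs. SHAM, 1 in GV16 vs. SHAM, and 3 pathway list genes in MOG vs. SHAM, 1 in GB20 vs. MOG and 0 in GV16 vs. MOG. These fits called fewer genes in most comparisons, with 71 and 73 in MOG vs. SHAM against 245, and the cause was not tested. In those fits the call of Fkbp5 in GV16 vs. SHAM held. DESeq2 on 12 libraries called 2 members in GB20 vs. SHAM and 8 pathway list genes in MOG vs. SHAM and 1 in GB20 vs. GV16. On 6 libraries, DESeq2 called 7 pathway list genes in GV16 vs. MOG and edgeR 3 in MOG vs. SHAM. With 1 library left out, members called ranged from 0 to 1 in MOG vs. SHAM, GB20 vs. MOG and GB20 vs. SHAM, 1 to 2 in GV16 vs. MOG, 2 to 4 in GV16 vs. SHAM, 0 to 3 in both needled groups vs. MOG and were 0 in GB20 vs. GV16, and pathway list genes ranged from 3 to 7, 2 to 8, 0 to 4 and 0 to 1 in the 4 planned comparisons. The medians of gene lists without 1 library were added after seeing the data.

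The experiment was repeated, but no source ties replicate numbers to the repeats. Deviations of same-numbered libraries correlated at -0.0966 to 0.286 (median 0.032), above 0.1 in 3 of 18 pairs. Libraries with different numbers correlated at -0.201 to 0.115 (median -0.0152), above 0.1 in 1 of 36 pairs. These values do not decide whether the numbers mark the repeats, and the main fit did not take them as pairs. The replicate block gave 3 members in GB20 vs. SHAM (also 3 with the gene length trend removed), 1 in MOG vs. SHAM, 1 in GB20 vs. MOG, 3 in GV16 vs. MOG, 4 in GV16 vs. SHAM and 0 in GB20 vs. GV16. Members gained were Fkbp5 (adjusted p = 0.0399) and Zbtb16 (0.0372) in GB20 vs. SHAM, Zbtb16 in GV16 vs. MOG (0.038) and in both needled groups vs. MOG (0.0178), and Cdkn1a in GV16 vs. SHAM (0.0385), all in edgeR. It also raised the count over all genes, from 245 to 404 in MOG vs. SHAM, 44 to 73 in GB20 vs. MOG, 30 to 47 in GV16 vs. MOG, 63 to 182 in GB20 vs. SHAM and 120 to 236 in GV16 vs. SHAM. Zbtb16, with 46 to 173 counts per library, and Cdkn1a, with 62 to 147, are the members whose values depth limits most.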

Other observations

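The genes most like Tsc22d3 over the 12 libraries were looked up after its values had been seen and lie outside the rule for named genes. By Pearson's r on log2 CPM they were Wee1 (0.935), Ciart (0.934), Prr5 (0.930), Lysmd1 (0.928), Wrb (0.924) and Slc26a6 (0.920). Wee1 is a cell cycle kinase under clock control and Ciart a clock repressor. None of the 6 was among the 6 most like Fkbp5, which follows from the r of 0.06 between Fkbp5 and Tsc22d3 and adds nothing to it. These are descriptions over libraries that share groups.

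Among the members, after group means had been taken away, Zbtb16 varied most closely with Nr3c1 (r = 0.74) and Errfi1 with Nr3c1 (r = 0.69), while Fam107a and Cdkn1a had r of 0.84 and Nr3c1 and Cdkn1a had r of -0.56. Each value rests on 12 libraries with 4 group means taken away, which leaves 8 residual degrees of freedom. These are a few of all pairs of the 10 members.

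Outside the planned pathway comparisons, 2 other glucocorticoid targets were called higher in a needled and immunized group than in SHAM. Plin4, a lipid droplet protein, was higher than in SHAM in GB20 (log2 fold change 1.05, SE 0.22, adjusted p = 0.0421) and in GV16 (1.17, SE 0.22, adjusted p = 0.0109) in edgeR. Its level was 1.33 to 1.997 CPM in SHAM and already 2.18 to 3.002 CPM in MOG, without needling. GB20, with 2.98 to 3.503 CPM, overlapped MOG, and GV16, with 3.29 to 3.79 CPM, lay above it. Hif3a, a subunit of a hypoxia-inducible factor, was higher than in SHAM in GB20 (0.92, SE 0.16, adjusted p = 0.00668) in edgeR. It had 5.76 to 8.27 CPM in SHAM, 7.27 to 10.2 CPM in MOG and 11.6 to 14.8 CPM in GB20. Neither gene was called in MOG vs. SHAM, GB20 vs. MOG or GV16 vs. MOG, so the part of needling in these differences from SHAM was not shown. Without 1 library, the call of Plin4 was lost in 9 of 12 fits in GB20 and in 3 in GV16, and that of Hif3a in 1.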
